A study of Mus musculus with 4 samples.

Results

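The 10 genes described here belong to the STAT5 pathway: the transcription factor genes Stat5a and Stat5b, the feedback inhibitor genes Cish, Socs1, Socs2 and Socs3, the kinase genes Pim1 and Pim2, the cytokine gene Osm and the repressor gene Bcl6. They were taken by symbol from the 53465 genes of the count table, because Cish was lower and Bcl6 higher with EGCG in these same libraries. Their EGCG-against-control values are therefore given as a description. Counts of them past a threshold stand only beside the same share over all tested genes, and support nothing. The libraries came from MDSCs, immature myeloid cells with suppressive activity, of male BALB/c mice that were 6 weeks old when injected with cells of the 4T1 mammary carcinoma line. The cells were isolated from the spleen with beads against Gr-1, an epitope of Ly-6G and Ly-6C, on day 21 by the sample labels and at an earlier time by the study's methods. They were then kept for 6 h either in medium alone (control, 2 libraries) or with EGCG, the main catechin of green tea, at 5 μg/mL (2 libraries). All groups thus carried the tumor, and whether the replicates of a group were separate mice or wells is not given in the sources used here.

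STAT5A and STAT5B are latent transcription factors of the cytoplasm. Cytokine receptors such as those of GM-CSF, IL-3 and IL-5 activate Janus kinases, which phosphorylate STAT5. The dimer then enters the nucleus and binds palindromic DNA of the form TTCNNNGAA. Among its best known target genes are Cish and Socs2, whose SH2 domain proteins dampen the same receptors, the serine/threonine kinase genes Pim1 and Pim2, and Osm, which encodes a cytokine of the IL-6 family. STAT5 is also known as a repressor of Bcl6, whose protein is a zinc finger repressor that recognises a sequence much like the STAT palindrome. In neutrophils and their precursors this pathway is known for its part in survival and expansion.

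The letters of the STAT palindrome were searched in the RefSeq promoter windows of GRCm38.p6, which run from 250 bases before to 50 bases after a start site. TTCNNNGAA reads the same on both strands. A window was held for 8 of the 10 genes (12 windows, since some genes have alternative starts), but not for Socs2 and Osm. The motif was found in 4 of these 12 windows, which belong to Cish, Bcl6 and Socs3, whereas 8.3% of all 32851 windows hold it. Cish, the gene by which STAT5 feedback is best known, had a tandem at chr9:107296656-107296681 on the plus strand. It is shown first, with the motifs in capitals. The first of them begins at the annotated RefSeq start base and the next 11 bases further on, with 2 bases between them, inside an exon without coding sequence in the GENCODE annotation. The stretches of Bcl6 and Socs3 below it have 10 bases on each side of the motif. The Bcl6 motif lies 118 bases before the first start site, upstream of the gene, at chr16:23988962-23988970. The Socs3 motif lies 154 bases before its start, in a GENCODE intron, at chr11:117969512-117969520. Both of these genes are on the minus strand, and all sequences are written 5′ to 3′ along the gene.
Cish: gttTTCCTGGAAagTTCTTGGAAatc
Bcl6, first start: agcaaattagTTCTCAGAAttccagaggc
Socs3: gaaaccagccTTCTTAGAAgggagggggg

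The 250 bases before the second RefSeq start of Bcl6 are shown whole, because they hold 3 motifs, again in capitals. They cover chr16:23981284-23981533 on the minus strand, within an intron of Bcl6 in GENCODE. The motifs begin 168, 122 and 88 bases before that start.
Bcl6, second start: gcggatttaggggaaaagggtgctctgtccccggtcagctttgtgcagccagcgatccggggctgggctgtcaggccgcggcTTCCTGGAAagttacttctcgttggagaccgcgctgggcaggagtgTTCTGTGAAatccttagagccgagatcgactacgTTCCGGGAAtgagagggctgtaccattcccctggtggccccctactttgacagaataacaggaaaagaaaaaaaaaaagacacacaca
Of all windows, 150 (0.457%) hold at least 2 such motifs and 11 (0.0335%) hold at least 3. The stricter form TTCCNGGAA, which is contained in TTCNNNGAA, occurs in 1.15% of all windows. Among the genes described here it occurs in 2 of the 12 windows, that of Cish and that of the second start of Bcl6. The form with 1 more base between TTC and GAA occurs in 6.95% of all windows and in 0 of these 12. The windows of Socs1, Pim1, Pim2, Stat5a and Stat5b do not contain the letters TTCNNNGAA. A match of letters is a description of the sequence and was not tested as a binding site.

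**Figure D1:**
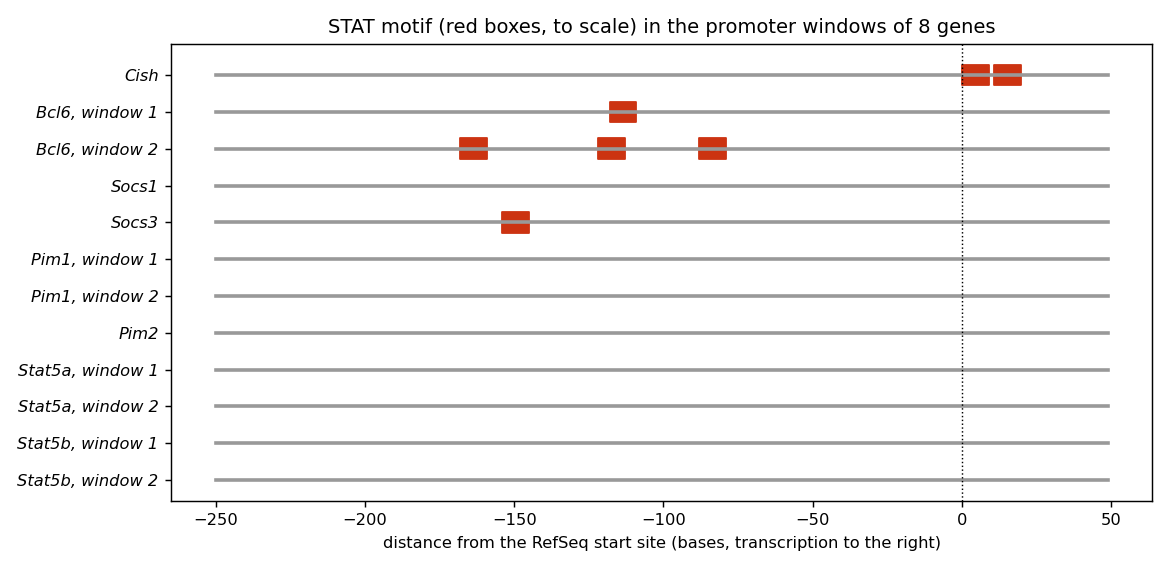
Position of the motif TTCNNNGAA (red boxes) in the promoter windows of the 8 genes that have one; the horizontal axis is the distance in bases from the RefSeq start site. Cish has its tandem at the start site, Bcl6 has 3 motifs before its second start and 1 before its first, and Socs3 has 1.

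All 10 genes had enough counts to be among the 14682 genes tested, with between 90 and 7567 counts in a library. The libraries held 17767318 to 18390385 counts. Expression is given as CPM, which are counts scaled by library size and TMM factor, and the fold changes come from edgeR's quasi-likelihood fit over all tested genes. Of the 10 genes, 8 had lower and 2 had higher mean expression in the EGCG treatment group. The median log2 fold change was -0.09, beside 0.0031 over all tested genes. The EGCG libraries were all below the control libraries for 4 genes (Cish, Socs2, Socs3 and Stat5b), and 21.2% of all tested genes did the same. They were all above for Bcl6 and Pim2, as for 21.5% of the tested genes. In either direction, 6 of the 10 genes did not overlap between the groups, against 42.7% of all tested genes. After Benjamini-Hochberg adjustment of edgeR's p-values, 0 of the 10 genes were under 0.05, against 0.150% of all tested genes (20 lower and 2 higher). An unadjusted p under 0.05 was found for 3 of them (Cish, Socs2 and Bcl6) and for 12.2% of all tested genes. DESeq2 called 0 of the 10 (0.341% of all genes), edgeR's robust fit called Cish and Bcl6 (0.429% of all genes), and scaling by library size only called Cish (1.03% of all genes). With a library left out, a group holds 1 library, so calls of the 10 genes from those fits are not given. Since Cish and Bcl6 were picked from this contrast, nothing is read from these counts. In such bulk RNA, fewer cells of a type and less RNA per cell cannot be told apart.

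**Figure D2:**
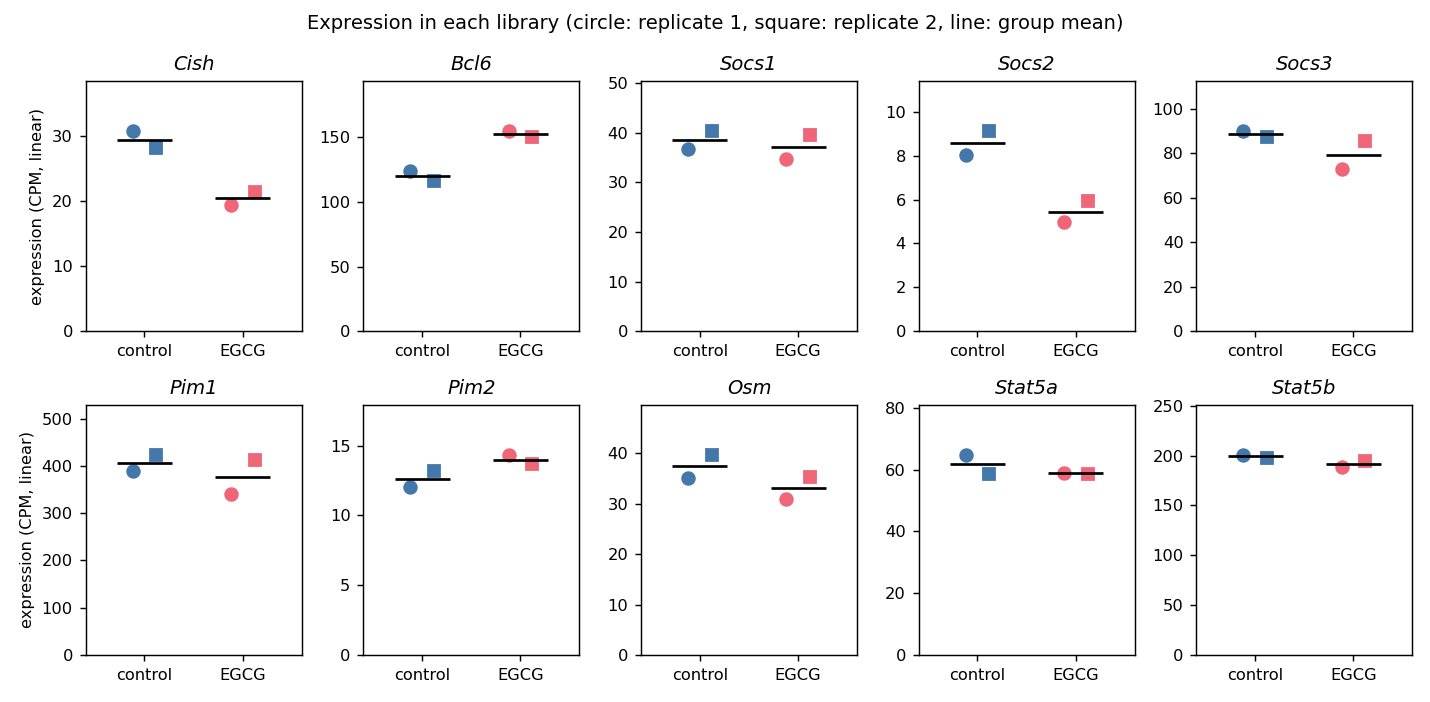
Expression of the 10 genes in CPM on a linear axis that begins at 0, with circles for replicate 1, squares for replicate 2 and a line at the mean of each group. The groups stand apart for Cish, Socs2, Bcl6, Pim2, Socs3 and Stat5b and overlap for Socs1, Pim1, Osm and Stat5a.

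Cish (ENSMUSG00000032578; chromosome 9 of GRCm38, 107296026 to 107302784, plus strand) encodes CIS, an SH2 domain protein that binds activated cytokine receptors and competes with STAT5 for its docking sites. Cish was at 30.8 CPM in control replicate 1 and 28.2 in control replicate 2, and at 19.5 and 21.5 in EGCG replicates 1 and 2. Both EGCG libraries lay below both controls, and the gap between the groups was wider than the difference within either. The mean was 29.5 ± 1.86 CPM (SD, n = 2) in the control group and 20.5 ± 1.44 CPM (SD, n = 2) in the EGCG treatment group, or 69.4% of control. The log2 fold change was -0.53 (standard error 0.11), with a range from -0.60 to -0.45 when libraries were left out in turn. This gene lay at percentile 4.68 of the log2 fold changes of all tested genes. Its exons overlap those of the antisense gene Gm17041 over 479 bases (7.46% of the exonic length) and those of Gm17040, also on the other strand, over 261 bases (4.07%). The deposited table is named as non-stranded counts, so reads of a gene and its antisense partner cannot be told apart where their exons overlap. Gm17040, with 1150 exonic bases in all, had 1 count in control replicate 1 and 0 in the other libraries. Gm17041 was listed at 0 counts in all 4 libraries, but all of its 479 exonic bases lie within Cish, so this does not show that it was silent.

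Socs2 (ENSMUSG00000020027; chromosome 10, 95385362 to 95417180, minus strand) encodes the close relative of CIS that is known for restraining growth hormone signaling. Its counts were the lowest of the 10 genes, namely 147 and 163 for control replicates 1 and 2 and 90 and 106 for EGCG replicates 1 and 2. A count of 90 carries a counting error of 10.5% by itself. In CPM, Socs2 was at 8.05 and 9.12 in the control group and at 4.96 and 5.93 in the EGCG treatment group. As for Cish, both EGCG libraries lay below both controls. The mean of the EGCG treatment group was 63.5% of control, with 8.59 ± 0.757 CPM (SD, n = 2) against 5.45 ± 0.687 CPM (SD, n = 2). Its log2 fold change of -0.66 (standard error 0.18) was the most negative of the 10 genes, and leaving out single libraries gave -0.79 to -0.53. Transcripts of other genes, mostly the predicted gene Gm9847, contain 6.55% of the 31-base words of Socs2.

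Socs3 (ENSMUSG00000053113; chromosome 11, 117966079 to 117970047, minus strand) encodes the inhibitor that binds gp130 and the G-CSF receptor and so limits STAT3 signaling. Socs3 was at 90.1 and 87.3 CPM in the control libraries and at 72.9 and 85.6 CPM in the EGCG libraries. The groups did not overlap, but the EGCG libraries differed from each other by more than EGCG replicate 2 differed from the controls. The mean was 88.7 ± 1.97 CPM (SD, n = 2) with control medium and 79.2 ± 9.01 CPM (SD, n = 2) with EGCG. This gave a log2 fold change of -0.16 (standard error 0.09). Without EGCG replicate 1 it was -0.05, and without EGCG replicate 2 it was -0.28.
Socs1 (ENSMUSG00000038037; chromosome 16, 10782240 to 10785536, minus strand) encodes the inhibitor that blocks the Janus kinases directly and is best known for ending interferon signaling. Socs1 was at 36.7 and 40.3 CPM in the control libraries and at 34.6 and 39.5 CPM in the EGCG libraries, so that the groups overlapped. Here the log2 fold change was -0.06 (standard error 0.10). It turned to 0.039 without EGCG replicate 1 and to 0.015 without control replicate 2. Within the CIS and SOCS family, the group means of Cish and Socs2 lay apart by more than the replicates of either group did, and those of Socs1 and Socs3 did not. Cish was chosen for being lower, and the difference between these genes was not tested.

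Stat5b (ENSMUSG00000020919) and Stat5a (ENSMUSG00000004043) are neighbours on chromosome 11, from 100780731 to 100850724 on the minus strand and from 100859351 to 100885169 on the plus strand. Stat5b was at 200.8 and 197.9 CPM in the control group and at 188.3 and 194.6 CPM in the EGCG treatment group. The groups did not overlap, but the mean with EGCG was still 96.0% of control. For Stat5b the log2 fold change was -0.06 (standard error 0.07), and it was -0.03 without EGCG replicate 1 and -0.01 with a correction for transcript length. Stat5a was at 64.8 and 58.6 CPM in the control libraries and at 58.9 and 58.7 CPM in the EGCG libraries. Control replicate 1 was the high library, and the other 3 were nearly level. The log2 fold change of Stat5a was -0.07 (standard error 0.08), and it was 0.0095 without control replicate 1 and 0.0075 with the length correction. The genes for both proteins share sequence: 15.1% of the 31-base words of Stat5b occur in Stat5a, so that their reads could be exchanged or dropped. Stat5a also overlaps the exons of Stat3 on the other strand over 72 bases.

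The PIM kinases phosphorylate proteins that control survival and translation, and they are active without a phosphorylation step. Their activity thus depends on the amount of protein, which was not measured in these libraries. Pim1 (ENSMUSG00000024014; chromosome 17, 29490753 to 29496112, plus strand) had the highest counts of the 10 genes. It was at 389 and 423 CPM in the control libraries and at 341 and 412 CPM in the EGCG libraries. The groups overlapped, with EGCG replicate 2 above control replicate 1. The log2 fold change of -0.11 (standard error 0.09) became 0.023 without EGCG replicate 1 and -0.25 without EGCG replicate 2. The antisense gene Gm26885, listed at 0 counts in every library, covers 14.5% of the exonic length of Pim1. This overlap takes 488 of the 6618 exonic bases of Gm26885.
Pim2 (ENSMUSG00000031155; chromosome X, 7878262 to 7883432, plus strand) was at 12.0 and 13.2 CPM in the control group and at 14.3 and 13.7 CPM in the EGCG treatment group. Both EGCG libraries were above both controls, by a margin smaller than the difference between the controls. Its log2 fold change was 0.15 (standard error 0.13), or 0.10 to 0.22 when libraries were left out in turn. Pim2 thus had a fold change of the other sign than Pim1, Cish and the SOCS genes.

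Osm (ENSMUSG00000058755; chromosome 11, 4236420 to 4241026, plus strand) encodes oncostatin M, a cytokine that myeloid cells secrete. Osm was at 35.2 and 39.7 CPM in the control libraries and at 30.9 and 35.4 CPM in the EGCG libraries. The groups overlapped narrowly, since EGCG replicate 2 was just above control replicate 1. In Osm, the log2 fold change was -0.18 (standard error 0.10), with a range from -0.28 to -0.08 when a library was left out.

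Bcl6 (ENSMUSG00000022508; chromosome 16, 23965052 to 23988852, minus strand) was the gene with the highest log2 fold change of the 10. Bcl6 was at 123.8 and 116.5 CPM in the control libraries and at 154.8 and 150.4 CPM in the EGCG libraries. The EGCG libraries lay above the controls by a gap more than the difference within either group. The mean was 120.1 ± 5.13 CPM (SD, n = 2) in the control group and 152.6 ± 3.05 CPM (SD, n = 2) in the EGCG treatment group, or 127.0% of control. Its log2 fold change was 0.34 (standard error 0.07), at percentile 94.4 of all tested genes. It ran from 0.30 to 0.39 with a library left out and was 0.41 with the length correction.

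**Figure D3:**
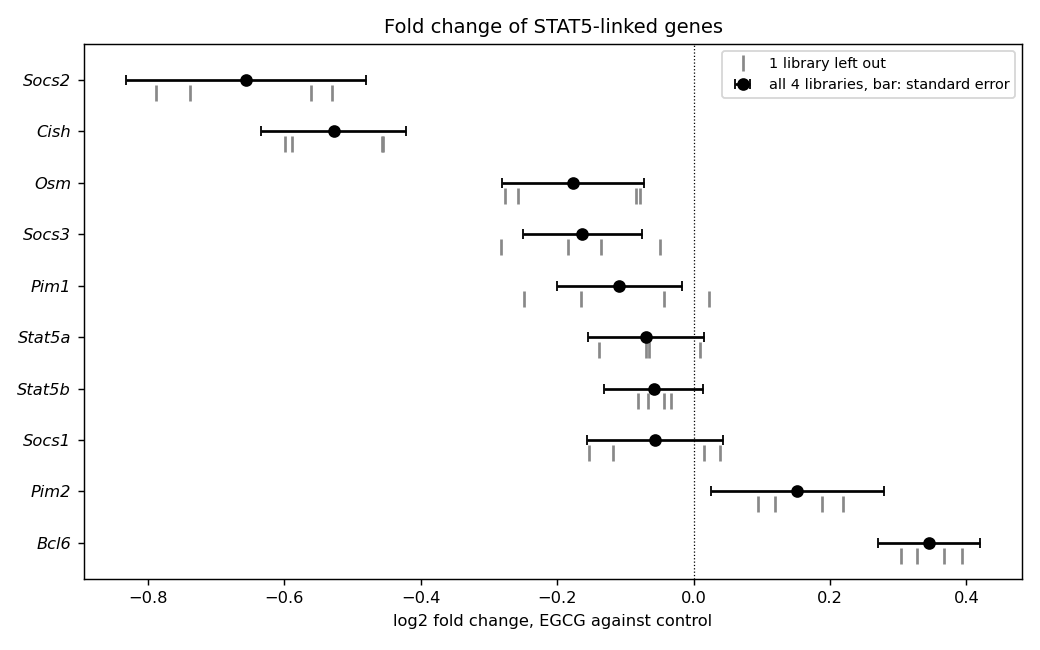
Log2 fold change of EGCG against control for the 10 genes (points) with the standard error of edgeR's fit (bars); the gray ticks are the values with 1 library left out. Socs2 and Cish lie farthest to the left, Bcl6 farthest to the right, and the ticks of Pim1, Socs1 and Stat5a cross 0.

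The order of the libraries was shared by some of these genes. EGCG replicate 1 was the lowest library for 7 of the 10 genes (Cish, Socs1, Socs2, Socs3, Pim1, Osm and Stat5b), whereas it was the lowest for 25.4% of all tested genes. It was the highest library for Bcl6 and Pim2. EGCG replicate 2 was neither the lowest nor the highest for any of the 10. Socs1, Pim1 and Osm had the same order from high to low, which was control replicate 2, EGCG replicate 2, control replicate 1 and EGCG replicate 1, and 3.15% of all tested genes had it as well. Cish, Socs3 and Stat5b shared another order, in which control replicate 1 was the highest (6.49% of all tested genes). With 4 libraries this is a description only.

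Levels of different genes can be compared only per length, so CPM were divided by the kilobases of exon of each gene. In the control group, Pim1 stood first with 120.8 ± 7.28 CPM per kilobase (SD, n = 2), followed by Stat5b with 36.0 ± 0.370 and Socs3 with 30.7 ± 0.683. Bcl6 (17.9 ± 0.766), Osm (16.5 ± 1.42), Socs1 (13.3 ± 0.875) and Stat5a (8.65 ± 0.614) lay between. The lowest levels per kilobase were those of Cish (4.60 ± 0.290), Pim2 (4.51 ± 0.279) and Socs2 (0.901 ± 0.0795). The control libraries of neighbours in this order did not overlap, except for Bcl6 with Osm and Cish with Pim2. Pim1 was thus 3.36 times as abundant per kilobase as the next gene, Stat5b, and Pim2 was 5.00 times as abundant as Socs2. In the EGCG treatment group, the level of Cish was 3.19 ± 0.224 CPM per kilobase and that of Pim2 was 5.01 ± 0.172. With the length of the longest transcript in place of all exons, Stat5a (15.6 CPM per kilobase) moved above Socs1 (13.3), and the other genes kept their places in the control group. Some levels moved with this length: Socs2 was at 2.02 CPM per kilobase beside 6.16 for Pim2, and Bcl6 was at 30.5.

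**Figure D4:**
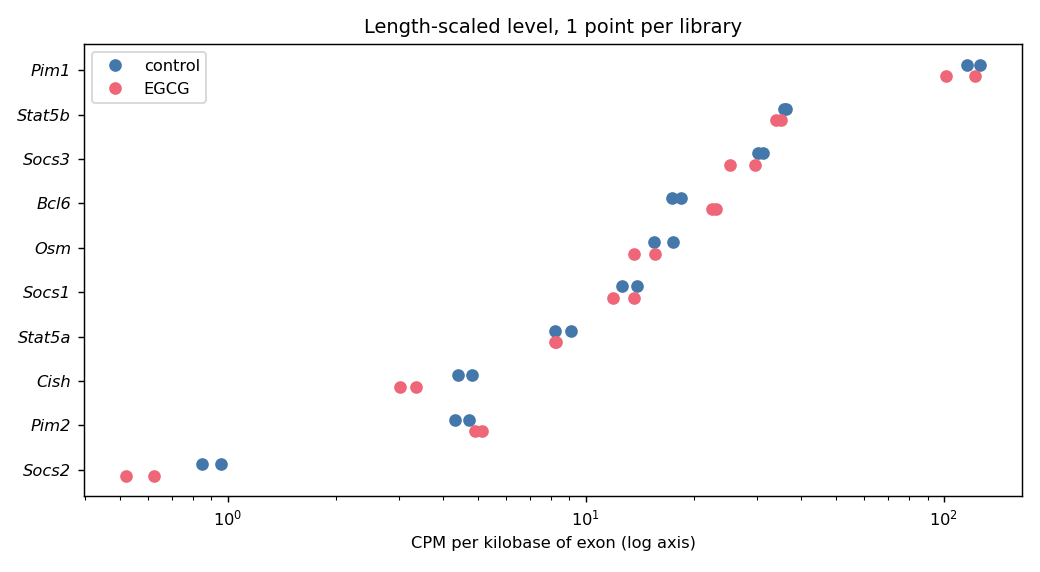
Level of each gene in CPM per kilobase of exon on a log axis, with 1 point per library and the genes ordered by their control mean. Pim1 stands highest and Socs2 lowest, and the control points of Cish and Pim2 lie together.

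The other genes of the pathway were read from lists of receptors, Janus kinases, negative regulators, other STAT genes, other STAT5 target genes, oncostatin M receptors, and BCL6 partners and targets. Together they held 82 different tested genes. With edgeR's adjusted p under 0.05, 1 of the 82 was lower and 0 were higher with EGCG, against 0.136% and 0.0136% of all tested genes. Without adjustment, 18 lower and 2 higher genes had a p under 0.05, against 7.02% and 5.22% of all tested genes. DESeq2 called Il6st and Csf2rb, both lower. The median log2 fold change of the 82 genes was -0.06, beside 0.0031 over all tested genes.
The gene that passed was Il6st, which encodes gp130, the shared receptor subunit for the IL-6 family and oncostatin M. Il6st was at 66.2 and 53.9 CPM in the control libraries and at 39.3 and 39.8 CPM in the EGCG libraries. In edgeR this was a log2 fold change of -0.60 (standard error 0.10) at an adjusted p of 0.0390. The call was lost under the length correction (log2 fold change -0.47), under upper-quartile scaling (-0.60) and without a filter (-0.60). With libraries left out in turn, the log2 fold change of Il6st ran from -0.74 to -0.44. Lifr, the other oncostatin M receptor subunit with at least 10 counts in every library, had a log2 fold change of -0.23 (standard error 0.18), which was -0.38 without EGCG replicate 1 and -0.09 without EGCG replicate 2.

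Of the 16 tested genes of receptors that signal through STAT5, 0 passed in either direction by edgeR's adjusted p. Its unadjusted p was under 0.05 for 4 lower and 0 higher genes, against 7.02% and 5.22% of all tested genes. These 4, named after their values were seen, were Csf2rb, Csf2rb2, Il7r and Il15ra. Csf2rb encodes the beta chain shared by the receptors for GM-CSF, IL-3 and IL-5. It was at 812 and 788 CPM in the control libraries and at 624 and 660 CPM in the EGCG libraries, without overlap. Csf2rb had a log2 fold change of -0.32 (standard error 0.08) and, in edgeR, an adjusted p of 0.121. Csf2rb2 encodes the beta chain for IL-3 only and had a log2 fold change of -0.25 (standard error 0.08, adjusted p of 0.228 from edgeR). Both genes are paralogs, so reads could be split between them. Csf2ra and Csf3r are given as further receptors of myeloid growth factors, chosen after their values were seen. Csf2ra, the GM-CSF receptor alpha chain, was at 692 and 620 CPM with control medium and at 658 and 593 CPM with EGCG, and these groups overlapped. Csf3r, which encodes the G-CSF receptor, was at 3561 and 3652 CPM in the control libraries and at 3628 and 3643 CPM in the EGCG libraries, a log2 fold change of 0.01 (standard error 0.08). By log2 fold change, the lowest of this list was Il15ra at -0.44 (standard error 0.19) and the highest was Il2ra at 0.30 (standard error 0.21). Without EGCG replicate 1 they were -0.27 and 0.52, and without EGCG replicate 2 they were -0.62 and 0.029.

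The Janus kinase genes had 0 of 4 calls by edgeR's adjusted p. For 1 lower gene the unadjusted p was under 0.05, against 7.02% of all tested genes. That gene was Jak2, the kinase bound to the GM-CSF receptor beta chain, at 364 and 407 CPM in the control group and 319 and 348 CPM in the EGCG treatment group. The groups did not overlap, and edgeR gave a log2 fold change of -0.21 (standard error 0.08; adjusted p of 0.332). For Jak2 this became -0.12 when control replicate 2 was dropped. The log2 fold change was -0.13 for Tyk2 (standard error 0.08; -0.07 with control replicate 1 dropped), -0.04 for Jak3 (0.10) and -0.0067 for Jak1 (0.08). The values of Jak1 and Jak3 changed sign under other settings.
Among the 5 other STAT genes, 0 passed by edgeR's adjusted p. Stat2 was lower at an unadjusted p under 0.05, as were 7.02% of all tested genes. Stat2, which carries type I interferon signals, was at 62.3 and 73.1 CPM in the control libraries and at 52.1 and 56.9 CPM in the EGCG libraries. Stat2 had a log2 fold change of -0.31 (standard error 0.09, adjusted p of 0.221 from edgeR). The value was -0.42 when control replicate 1 was left out and -0.19 when control replicate 2 was. Stat3 and Stat6 had log2 fold changes of -0.02 and 0.02 (standard errors 0.07 and 0.07), and both changed sign: Stat3 was at 0.09 with the length correction and at 0.0071 without control replicate 2, and Stat6 at -0.01 with library size only. Stat4 had a value of 0.13 (standard error 0.17), and leaving out control replicate 2 gave 0.41, whereas leaving out control replicate 1 gave -0.11.

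Of 16 negative regulators, 0 passed by edgeR's adjusted p. Among them 2, Socs7 and Dusp4, were lower at an unadjusted p under 0.05, as were 7.02% of all tested genes. The list ran from Dusp4, a phosphatase of MAP kinases, at -0.30 (standard error 0.12) to Ptpn2, a phosphatase of Janus kinases and STATs, at 0.11 (standard error 0.09) on the log2 scale. Dropping EGCG replicate 1 gave -0.17 for Dusp4, and dropping control replicate 1 gave 0.066 for Ptpn2. The remaining SOCS genes, Socs4, Socs5, Socs6 and Socs7, named as relatives after their values were seen, had log2 fold changes of -0.09, -0.16, -0.06 and -0.26 (standard errors 0.09, 0.13, 0.12 and 0.11).
Among 24 other STAT5 target genes, 0 passed by edgeR's adjusted p. At an unadjusted p under 0.05 there were 6 lower and 0 higher genes, against 7.02% and 5.22% of all tested genes. The lowest was Lif, which encodes another cytokine of the IL-6 family, at 2.52 and 2.91 CPM with control medium and 1.38 and 1.40 CPM with EGCG. Lif had a log2 fold change of -0.96 (standard error 0.29, adjusted p of 0.218 from edgeR). The others, named after their values were seen, were Igf1 (-0.56), Spred1 (-0.41), Pim3 (-0.27), Cd274 (-0.27) and Ccnd2 (-0.23), in log2 fold change. The value of Igf1 rests on control replicate 1, since Igf1 was at 18.8 CPM there and at 11.9 in control replicate 2, beside 9.16 and 11.7 with EGCG. Pim3, the kinase closest to the genes described above, was at 30.4 and 31.5 CPM with control medium and 23.7 and 27.5 CPM with EGCG, without overlap. The survival genes Mcl1 and Bcl2l1 and the growth gene Myc were also picked after their values were seen. Mcl1 and Bcl2l1 had log2 fold changes of 0.04 (standard error 0.08) and -0.12 (0.08), and Myc had 0.04 (0.13). The list's median log2 fold change was -0.03.
For the 15 BCL6 partners and targets, 0 genes passed by edgeR's adjusted p. An unadjusted p under 0.05 was found for 2 lower genes, among them Prdm1, and for 2 higher genes, Id2 and Cdkn1b. Over all tested genes these shares were 7.02% and 5.22%. Prdm1 and Id2 were named after their values were seen. The log2 fold change was -0.30 for Prdm1 (standard error 0.13), 0.17 for Id2 (0.08) and 0.17 for Cdkn1b (0.07). This list mixes partners and paralogs of BCL6 with genes reported as repressed by it, and its direction was not tested.

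**Figure D5:**
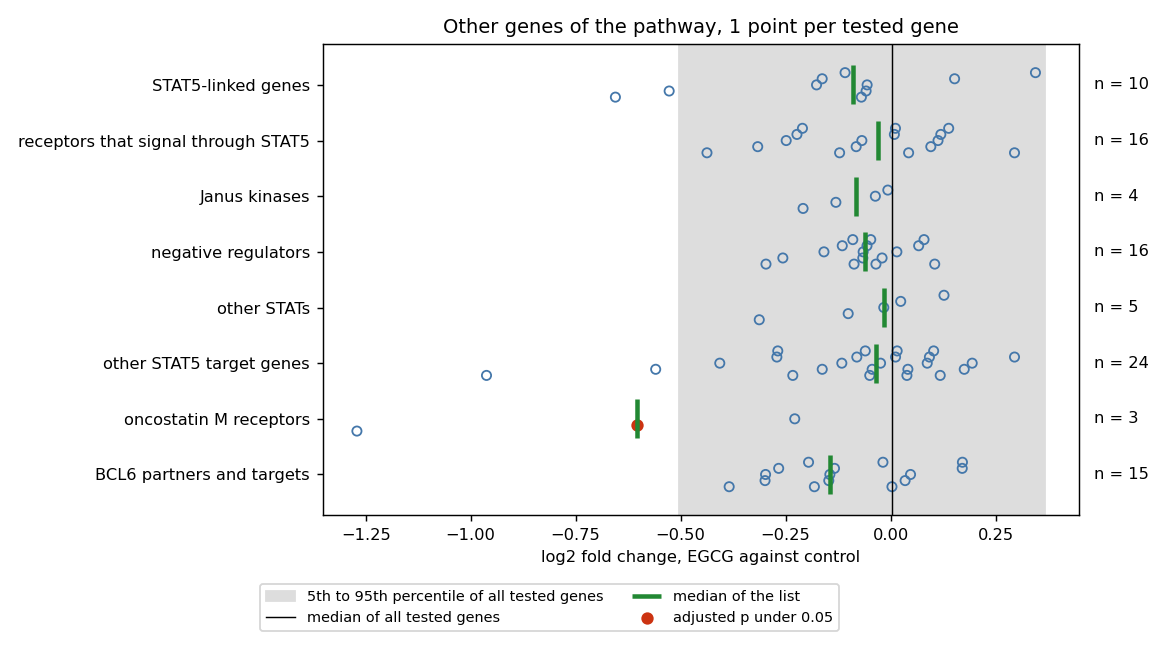
Log2 fold change of EGCG against control for the 10 genes described here (top row) and the tested genes of each list (circles, spread vertically for legibility), with the list's median (green), the median of all tested genes (black line) and their range from percentile 5 to 95 (gray, -0.50 to 0.37). The gray range is that of single genes and is no measure for a list's median. Il6st is the filled point with edgeR's adjusted p under 0.05. It is also the median (-0.60) of the 3 tested genes of the oncostatin M receptor list, which are Il6st, Lifr and Il31ra, without Osmr. This median moved to -0.42 under the stricter filter, -0.47 under the length correction, -0.44 without control replicate 1 and -0.74 without control replicate 2.

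By the distance between log2 CPM over the 4 libraries, each centred on the gene's mean, the genes most like Cish among 13117 others included Phf11c (0.044) and Zfp609 (0.062). Those most like Bcl6 were Gm14010 (0.013), Xpnpep3 (0.018) and Sptssa (0.039). This likeness rests on 4 libraries and on the same contrast by which Cish and Bcl6 were chosen. Phf11c was at only 1.49 to 2.35 CPM and Gm14010 at 1.23 to 1.65 CPM. The standard errors of their log2 fold changes, 0.29 and 0.33, were wider than the distances given.

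The label of the cells was set beside marker genes. The 8 neutrophil markers summed to between 48856 and 68177 CPM in a library, and the groups overlapped. The lists of monocytes (1140 to 1497 CPM), splenic macrophages (563 to 724), eosinophils (753 to 1061), endothelial cells (96.8 to 128.8) and platelets (34.2 to 43.6) were lower in both EGCG libraries than in both controls. The fold change was below 0 for 5 of 6 monocyte, 8 of 8 macrophage, 4 of 4 eosinophil, 4 of 4 tested endothelial and 5 of 5 platelet markers. Of the monocyte markers, Fn1 had a log2 fold change of -0.72 and Csf1r one of -0.14. The groups overlapped for Ly6c2 (0.12) and Ccr2 (-0.0021). Prg2 made up 607 to 865 CPM of the eosinophil sum, Hmox1 264 to 346 of the macrophage sum and Pecam1 87.3 to 111.0 of the endothelial sum. Itga2b made up 23.1 to 30.4 CPM of the platelet sum, and the groups overlapped for Pf4, Ppbp, Gp9 and Gp1bb. The sum of the 6 T cell markers (90.0 to 107.5 CPM) was higher in both EGCG libraries, by a margin of 103.6 in control replicate 2 against 103.8 in EGCG replicate 1. Cd3d made up 75.2 to 90.2 CPM of it, and 4 of the 6 markers had a fold change above 0. The sums of B cells, NK cells, basophils or mast cells, dendritic cells, plasma cells and erythroid cells overlapped. Of the tested markers of these 13 cell types, 0 passed by edgeR's adjusted p, and none was at 0 counts in all libraries. Cish, Socs2, Csf2rb and Il6st were lower in the same libraries as the monocyte, macrophage, eosinophil, endothelial and platelet lists, in cells that had been selected with Gr-1 beads, and the part of these cells in the result was not tested. Across the 14666 tested genes with a length, longer genes had lower fold changes (Spearman's rho of -0.286, over genes and not over replicates). With a correction for length, the log2 fold change was -0.46 for Cish and -0.55 for Socs2.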

How the data were processed

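RNA-seq of MDSCs was measured in 2 control and 2 EGCG libraries, grouped by their labels. By the study's methods and the submitters' processing notes, the authors aligned the reads with STAR (2.6.0c) to GRCm38, counted them with featureCounts (1.6.2) on Ensembl release 91, and deposited whole-number counts per gene that were not normalized. There were 0 columns of other samples and 0 rows without a gene name. The 10 genes and all gene lists were chosen with earlier results of these data known.

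Genes were filtered with filterByExpr (minimum count of 10), scaled by TMM and fitted with edgeR 4.0.16 (quasi-likelihood test, legacy form, no block), with Benjamini-Hochberg adjustment over 14682 genes and a threshold of 0.05. The standard error is the log2 fold change divided by the square root of F. The procedure was tested on simulated data. The p-values measure the spread between these libraries, which may be technical. Differences between replicates exceeded sampling noise (mean chi-square per gene of 6.79 between the control libraries and 6.57 between the EGCG libraries). Intervals from counts cover counting error only.

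The genes named are the 10, every Janus kinase and STAT gene, the genes past the threshold and the lowest and highest gene of each list with at least 10 counts in every library; exceptions are marked, and some genes that this rule names are not reported here. For the likeness of genes, 0.05 was added to CPM and genes with a mean CPM of at least 1 were used. GENCODE M21 (GRCm38) gave positions and lengths for 53360 of 53465 identifiers. Promoter windows were those of RefSeq (GRCm38.p6). The alternatives were other filters and scalings, a robust fit, DESeq2 1.42.0, a length correction (loess of log counts on log length with a span of 0.4), a replicate block and leaving out each library. The scripts ran in R 4.3.3 and Python 3.11.15 (NumPy 2.4.6; pandas 2.3.3; figures by matplotlib 3.10.9).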

Additional observations from a re-analysis of the deposited data

How the results depend on the processing

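Cish, Socs2, Bcl6, Pim2, Socs3, Osm and Stat5b kept the sign of their log2 fold change under all 9 alternatives of filter, scaling, test and correction and with each library left out. Socs1 turned to 0.015 without control replicate 2 and to 0.039 without EGCG replicate 1, Pim1 to 0.023 without EGCG replicate 1, and Stat5a to 0.0095 without control replicate 1 and to 0.0075 with the length correction. With a library left out, the range was -0.15 to 0.039 for Socs1, -0.25 to 0.023 for Pim1 and -0.14 to 0.0095 for Stat5a. The cause was not tested.

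In the reported fit, 0 of the 10 genes were at edgeR's adjusted p under 0.05 (0.150% of all tested genes). There was 1 with library size only (1.03%), and there were 2 with edgeR's robust fit (0.429%). The number of higher genes among the 10 was between 2 and 4 with a library left out. Over all tested genes, the 20 lower and 2 higher calls became 0 and 0 without a filter (27490 genes tested), 135 and 16 with library size only, 49 and 14 with the robust fit, 38 and 12 with DESeq2, and 3 lower with the length correction. Upper-quartile scaling left 9 lower calls. With a library left out there were 72 to 235 lower and 5 to 119 higher calls. They numbered 72 and 5 without control replicate 1, 235 and 119 without control replicate 2, 90 and 28 without EGCG replicate 1, and 199 and 53 without EGCG replicate 2. In these fits the single library of a group is assumed to vary like the other group. The replicate block gave 6 higher calls and called 0 of the 10 genes. The same replicate numbers carried little shared deviation (correlation of 0.021 across 11765 genes), so the numbers are not taken as pairs.

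Of the other pathway genes, the 1 lower call became 0 without a filter, 0 under the length correction and 0 under upper-quartile scaling, 3 with library size only and 2 with DESeq2. With 1 more base between TTC and GAA, 0 of the 8 genes with a promoter window had the motif in it. Among the 10 genes, depth limits Socs2 most, whose lowest count was 90, and among the other genes named Lif had 25 counts in each EGCG library.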
